A study of Homo sapiens with 6 samples.

Results

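The genes described here encode 10 enzymes that build nucleotides: CAD, DHODH and UMPS of the pyrimidine pathway, PPAT, GART and PAICS of the purine pathway, IMPDH2 of the guanine branch, and TYMS, RRM1 and RRM2, which supply the building blocks of DNA. They were taken by symbol from a list set for this description, and all 10 were found among the 23368 symbols counted. The established line NB4 was derived from a human acute promyelocytic leukemia and carries the PML/RARα fusion, and maltonis is a synthetic molecule derived from maltol. RNA was sequenced from NB4 cells that had been left not treated (n.t.) and from NB4 cells given 10 µM maltonis, both at 24 h, with 3 libraries per group in the same serum-containing medium. The study calls the libraries biological replicates, but the labels do not tell how cultures were kept apart, so p-values measure only the spread between these libraries of 1 cell line. In RNA from whole cultures, fewer cells of a type and less RNA per cell cannot be told apart.

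Libraries held between 18492154 and 38205483 counts, and 3 counts, taken as the floor of detection, stood for 0.0785 to 0.162 counts per 1000000 before scaling (CPM), which takes in counting error and no other. The lowest count of any of the 10 genes in any library was 441, so all of them passed the filter on low values and none was limited by depth. The promyelocyte list held 8 markers and left out ELANE, which was already known to move with the treatment. All 8 were detected in every library, 4 of them lower after maltonis, 3 higher and 1 not called. Of all genes tested, 32.1% were lower and 31.9% higher. The listed markers, which do not include ELANE, thus went both ways. The summed level of the 8 markers, mostly MPO, was 14280 to 16810 CPM in n.t. and 8805 to 9270 CPM in maltonis-treated cells. MPO fell from 14610 to 7425 CPM on average and CTSG rose from 109 to 553 CPM, with log2 FC of −0.98 and 2.34. Of 8 markers of other blood cells, 4, among them MS4A1, HBB and PF4, were at 0 in all libraries. CD3D alone stood above 11 counts, at 42.9 to 44.8 CPM in n.t. and 14.9 to 15.8 CPM in treated cells. Replicate 1 of both groups carries another code in its table's name than replicates 2 and 3, and what the code stands for is not given.

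Cells make purines by building the ring on a ribose phosphate until IMP is reached, which is then turned into AMP or GMP, and they make pyrimidines by building the ring first and attaching it to the sugar to give UMP. Ribonucleotide reductase converts ribonucleotides into deoxynucleotides, and thymidylate synthase makes the thymidine nucleotide that only DNA needs. Dividing leukemic cells draw heavily on these routes, and several of the genes are textbook targets of the MYC and E2F transcription factors. The question here was how the RNA of these enzymes stood after maltonis.

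PPAT and PAICS lie head to head and were among the genes that fell together, so the stretch between them is shown. RefSeq holds promoter windows for 9 of the 10 genes on GRCh38.p14, each of 300 bases with 250 before a transcript start, and IMPDH2 was not matched. The start of PPAT on the minus strand and the nearest start of PAICS on the plus strand are parted by 136 bases, of which 102 are G or C. This stretch, chr4:56435616-56435751, read on the minus strand toward PPAT, is:
PPAT and PAICS: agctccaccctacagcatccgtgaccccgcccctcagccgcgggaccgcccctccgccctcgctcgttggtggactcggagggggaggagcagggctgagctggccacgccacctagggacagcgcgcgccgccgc

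The windows were searched on both strands for the letters CACGTG (the canonical E-box, bound by MYC with MAX), CCAAT, and TTTCCCGC, TTTCGCGC, TTTGCCGC or TTTGGCGC (E2F sites). CACGTG was found for 3 of the 9 genes (PPAT, PAICS and DHODH), against 8.78% of all 27305 genes with a window. The match of PPAT and that of PAICS are the same letters on the genome, beginning at position −182 from the PPAT start and at base 41 of the PAICS transcript. CCAAT was found for 5 of 9 genes, against 39.7% of all genes. These were CAD, DHODH and GART, which were lower, RRM1, which was higher, and RRM2, which was not called. GART and RRM2 held several CCAAT matches, not all of which are shown. An E2F form was found for GART and TYMS, against 3.99% of all genes. A link between motif and direction was not tested. No 2 different motifs overlapped in these windows, and a match describes letters, not a bound site. The sites that bear on pairs described here are shown with the motif in capitals, the first 2 being the E-boxes of genes that fell and the last 2 the CCAAT of both subunits of ribonucleotide reductase, at chr4:56435780-56435809 (minus strand), chr16:72008573-72008602, chr2:10122634-10122663 and chr11:4094645-4094674 (plus strand):
PPAT and PAICS: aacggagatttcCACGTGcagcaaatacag
DHODH: gccgctactgcgCACGTGcacccaaccaga
RRM2: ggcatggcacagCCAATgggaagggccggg
RRM1: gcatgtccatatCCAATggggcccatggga

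After maltonis, 6 of the enzymes were lower, 2 were higher and 2 did not pass the test. Lower at an FDR under 0.01 were 6 of 10, against 32.1% of all 13209 genes tested, and higher were 2 of 10, against 31.9%, so that 8 of 10 changed where 64.0% of all genes did. None of the 10 went beyond the study's size criterion of about 2.5-fold, which 10.4% of genes tested passed downward and 9.96% upward. Their median log2 FC was −0.56, against 0.01 over all genes tested. In the 6 lower and 2 higher genes no library of one group reached the range of the other, which also held downward for 37.8% and upward for 38.8% of genes tested. So the direction of the synthesis enzymes was mixed, with the ring-building steps on the low side.

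**Figure D1:**
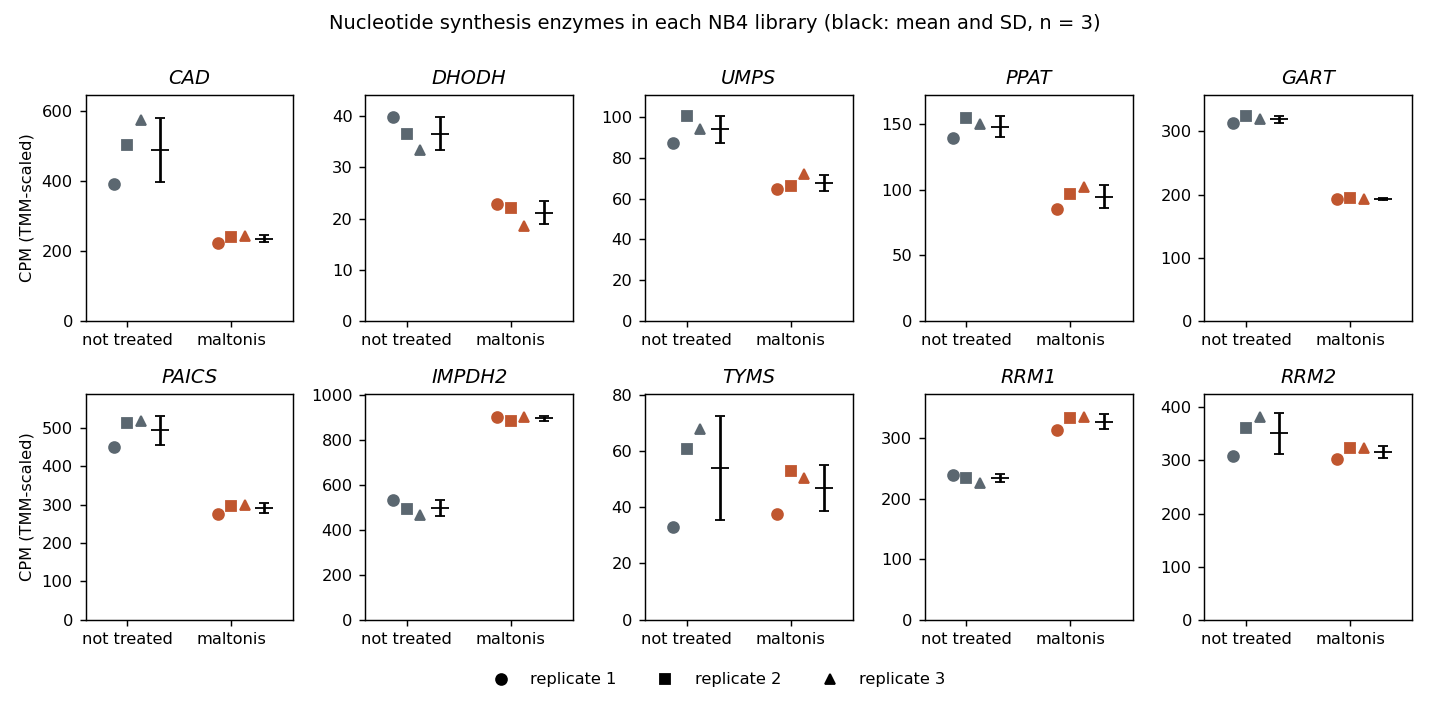
Level of each enzyme in TMM-scaled CPM (y axes from 0) in the 3 n.t. and 3 maltonis-treated libraries, with symbols for replicates 1 to 3 and black marks for the mean and SD. The groups are apart in 8 panels and overlap for TYMS and RRM2, where n.t. replicate 1 is the lowest n.t. library.

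CAD, the multienzyme protein that opens pyrimidine synthesis, had the largest decrease of the 10. It stood at 392, 502 and 573 CPM in n.t. replicates 1, 2 and 3 and at 223, 241 and 242 CPM in treated ones. Every treated library lay below every n.t. one, and the spread among n.t. libraries was the wider. The means were 489 ± 91.1 and 235 ± 10.4 CPM (SD, n = 3), and the log2 FC was −1.06 (standard error 0.124, FDR = 6.54e-05). The log2 difference was −0.81 in replicate 1 and −1.15 in replicates 2 and 3.

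DHODH, the mitochondrial enzyme that oxidizes dihydroorotate and passes the electrons to ubiquinone, was measured at 39.8, 36.6 and 33.5 CPM without treatment. With maltonis it was at 22.8, 22.1 and 18.5 CPM. The groups did not overlap, and the log2 FC was −0.79 (standard error 0.102, FDR = 0.000116). UMPS, which attaches the ring to the sugar and gives UMP, changed least of these enzymes. Its libraries held 87.3, 101 and 94.2 CPM in n.t. and 64.7, 66.0 and 72.1 CPM in treated cells. Its log2 FC was −0.48 (standard error 0.0745, FDR = 0.000383), a level 0.718 times that of n.t. cells. All enzymes of the route to UMP were therefore lower, CAD most and UMPS least, although the difference between them was not tested.

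The steps after UMP were lower as well, except for the kinase. CTPS1, listed as CTPS, and CTPS2 make CTP from UTP, and their log2 FC were −0.86 (FDR = 0.000304) and −1.25 (FDR = 1.39e-05). CTPS2 is the scarcer transcript, with 11.2 ± 1.05 CPM in n.t. and 4.66 ± 0.374 CPM in treated cells (SD, n = 3). CMPK1, the UMP and CMP kinase, had a log2 FC of −0.13 (FDR = 0.156; −0.07 without maltonis replicate 1 and −0.20 without maltonis replicate 3).

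PPAT, the amidophosphoribosyltransferase of the committed step of purine synthesis, held 139, 155 and 150 CPM in n.t. libraries. In treated libraries it held 85.0, 96.5 and 102 CPM, all below the n.t. range. The log2 FC was −0.65 (standard error 0.0802, FDR = 9.37e-05). GART, a trifunctional protein of the early steps, had the smallest standard error of the 10, with 313, 324 and 320 CPM in n.t. and 193, 195 and 192 CPM in treated cells. Its log2 FC was −0.72 (standard error 0.0503, FDR = 2.60e-06). PAICS, a bifunctional enzyme that acts after GART, stood at 450, 513 and 518 CPM and fell to 276, 298 and 299 CPM, a log2 FC of −0.76 (standard error 0.0715, FDR = 1.60e-05).

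The proportion of PPAT and PAICS, which flank the stretch printed above, was compared within libraries. The ratio of PAICS to PPAT counts was 3.23, 3.31 and 3.46 in n.t. libraries and 3.25, 3.08 and 2.92 in treated ones. The ranges overlapped only through replicate 1, and the other treated libraries lay below all n.t. ones. The log2 difference of −0.11 had p = 0.2 in the two-sided exact permutation test, whose smallest value with 3 against 3 libraries is 0.1. Another RefSeq start of PAICS lies inside PPAT on the opposite strand. The counting's use of strand is not given, so reads in the shared part cannot be told apart.

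The other enzymes of the purine route were taken from a list of the whole pathway. Of the 5 that are not among the 10, 4 were lower and none was higher, against 32.1% and 31.9% of all genes tested. PFAS, the amidotransferase that acts between steps of the GART protein, fell from 185 ± 19.4 to 83.8 ± 2.47 CPM (SD, n = 3), a log2 FC of −1.15 (FDR = 3.03e-06). PRPS1, which makes the activated ribose that both routes need, had a log2 FC of −1.31 (FDR = 1.03e-06), and PRPS2 one of −0.26 (FDR = 0.00400; −0.14 and FDR = 0.0635 with total counts as scaling). ADSL, the lyase that acts both in the route and in the step to AMP, had a log2 FC of −0.35 (FDR = 0.000504).

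ATIC, which completes the ring, did not pass the test and varied widely between libraries. It held 20.6, 60.2 and 92.4 CPM in n.t. and 20.2, 45.0 and 42.6 CPM in treated cells, with replicate 1 lowest in both groups. Its log2 FC was −0.69 (FDR = 0.219). Without n.t. replicate 1 it was −1.08 (FDR = 0.00750), without n.t. replicate 3 it was −0.19 (FDR = 0.717) and without maltonis replicate 1 it was −0.44 (FDR = 0.481). It was called lower with all 6 libraries when the file-name code was a covariate (−0.60, FDR = 0.00686).

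**Figure D2:**
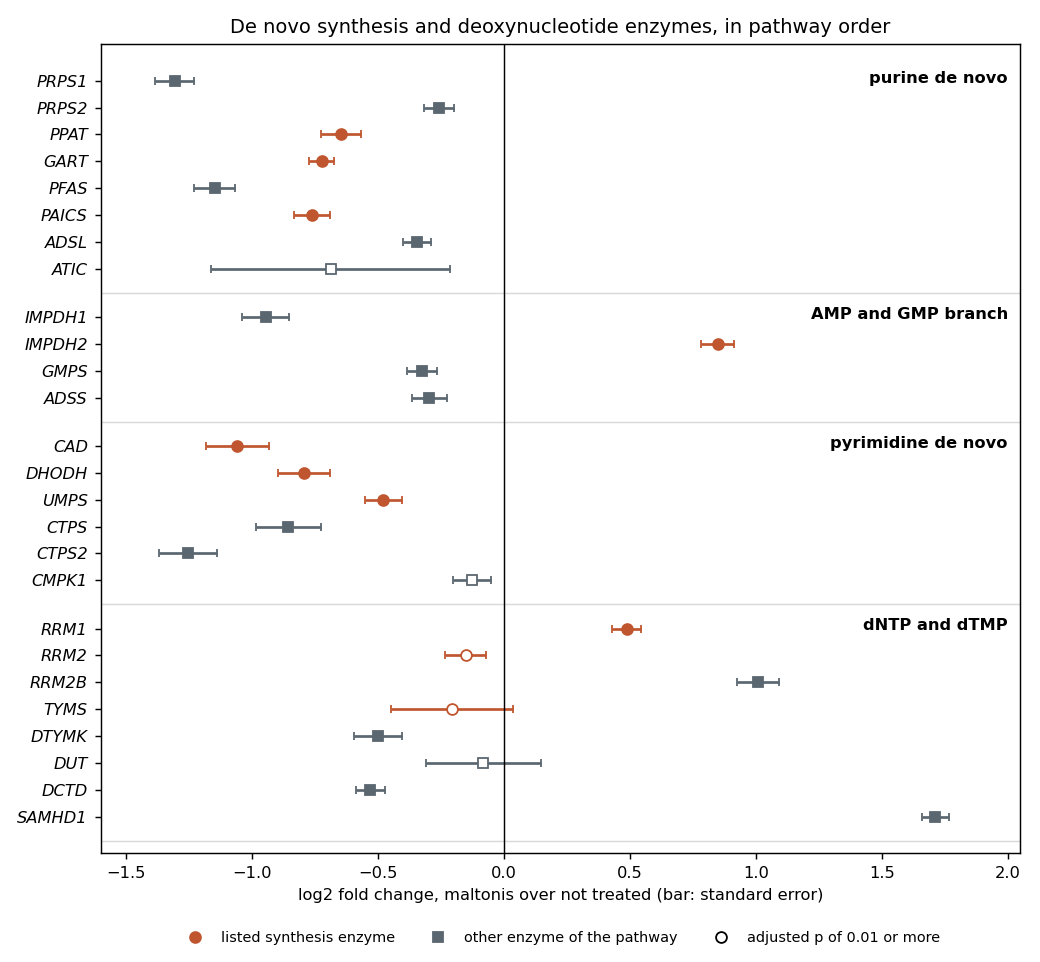
Log2 FC (x axis, maltonis over n.t., bars are standard errors) of enzymes of de novo synthesis and deoxynucleotide supply in pathway order. Filled marks passed an FDR of 0.01; in the purine and pyrimidine blocks all of them lie left of 0, whereas IMPDH2, RRM1, RRM2B and SAMHD1 lie right of it.

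IMPDH2, the dehydrogenase that commits IMP to the guanine branch, moved the other way. It measured 534, 493 and 465 CPM in n.t. libraries, and 902, 882 and 901 CPM in those given maltonis. The lowest treated library lay well above the highest n.t. one, and the log2 FC was 0.85 (standard error 0.0643, FDR = 4.35e-06). The related enzyme IMPDH1, which catalyzes the same reaction, fell from 184 ± 20.01 to 95.9 ± 7.92 CPM (SD, n = 3), a log2 FC of −0.94 (FDR = 2.15e-05). The ratio of IMPDH2 to IMPDH1 counts, which no scaling of libraries can change, was 2.58, 2.74 and 2.78 in n.t. and 8.64, 9.34 and 10.1 in treated libraries. That is a 3.46-fold difference, with p = 0.1 in the two-sided exact permutation test, the smallest that it can give. The 2 genes are similar in sequence, and reads are uncertain where the counting could have split them.

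The remaining branch enzymes were slightly lower. GMPS, which finishes GMP, had a log2 FC of −0.33 (FDR = 0.00104) and ADSS, which starts the step to AMP, one of −0.29 (FDR = 0.00464; −0.18 and FDR = 0.0421 with total counts as scaling). ADSSL1 was at 0.107 to 0.178 CPM, near the floor, and was not tested.

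RRM1, the large catalytic subunit of ribonucleotide reductase, was the other enzyme that rose. It stood at 239, 235 and 226 CPM in n.t. and at 313, 334 and 335 CPM in treated libraries. The groups did not overlap, and the log2 FC was 0.49 (standard error 0.0560, FDR = 5.82e-05). RRM2, the small subunit that carries the radical and is made mainly in S phase, held 309, 362 and 382 CPM in n.t. and 302, 323 and 323 CPM in treated cells. The groups overlapped, and the log2 FC of −0.15 (standard error 0.0830) did not pass the test (FDR = 0.128). Without n.t. replicate 1, the lowest n.t. library, it was −0.25 (FDR = 0.00458), and without n.t. replicate 3 it was −0.09 (FDR = 0.334).

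The balance between the subunits takes in the rise of RRM1 as well as the level of RRM2. The ratio of RRM2 to RRM1 counts was 1.29, 1.54 and 1.69 in n.t. and 0.965, 0.967 and 0.962 in treated libraries. The treated libraries lay below all n.t. ones, with a log2 difference of −0.63 (two-sided exact permutation test, p = 0.1, the smallest possible). RRM2B, the alternative small subunit, which p53 can induce and which works outside S phase, rose from 70.4 ± 0.919 to 142 ± 15.6 CPM (SD, n = 3). Its log2 FC was 1.01 (standard error 0.0836, FDR = 7.39e-06). The ratio of RRM2 to RRM2B counts accordingly went from 4.42, 5.17 and 5.35 to 2.44, 2.18 and 2.11, a 2.22-fold fall (exact permutation test, p = 0.1).

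**Figure D3:**
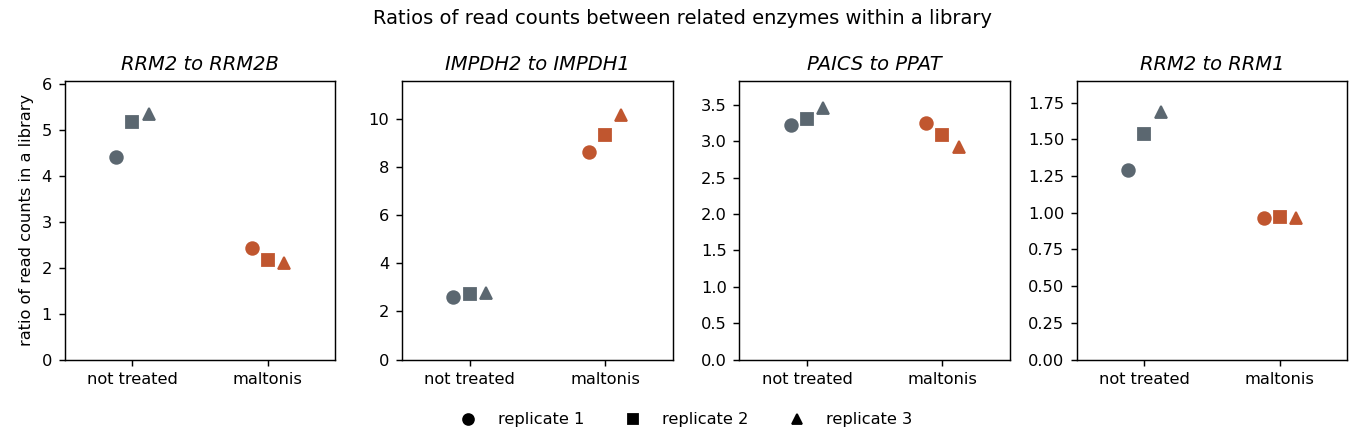
Ratio of read counts (y axes from 0) between related enzymes in each library, n.t. and maltonis-treated, with symbols for replicates 1 to 3. The groups are apart for RRM2 to RRM2B, IMPDH2 to IMPDH1 and RRM2 to RRM1, and they overlap for PAICS to PPAT.

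TYMS, thymidylate synthase, was the least certain of the 10. Its libraries held 33.0, 60.6 and 67.9 CPM in n.t. and 37.5, 52.7 and 50.2 CPM in treated cells. Replicate 1 was the lowest in both groups, and the groups overlapped. The log2 FC was −0.21 (standard error 0.241, FDR = 0.462). Within replicate 1 the log2 difference was 0.19, and within replicates 2 and 3 it was −0.32, so the sign differed between the file-name codes. With replicates 2 and 3 alone, TYMS was called lower (log2 FC −0.32, FDR = 0.00187). With 1 library left out, the log2 FC ranged from −0.46 without n.t. replicate 1 (FDR = 0.0102) to −0.015 without n.t. replicate 3 (FDR = 0.960). ENOSF1, which overlaps TYMS on the opposite strand, had a log2 FC of −0.58 (FDR = 0.000166), and C18orf56, the opposite-strand transcript at the TYMS start, one of 0.71 (FDR = 0.00269), which missed the threshold without n.t. replicate 3 (FDR = 0.0123) or maltonis replicate 2 (FDR = 0.0157) or 3 (FDR = 0.0157). Reads of overlapping genes cannot be told apart if strand was not used.

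Of the 6 other genes on the deoxynucleotide list, 2 were higher and 2 lower, near the 31.9% and 32.1% of all genes tested. SAMHD1, which degrades deoxynucleoside triphosphates and is known as an antiviral factor, showed the largest increase on it. It stood at 91.5, 90.0 and 90.0 CPM in n.t. and at 303, 290 and 297 CPM in treated libraries, a log2 FC of 1.71 (standard error 0.0525, FDR = 4.35e-08). DTYMK, the thymidylate kinase, and DCTD, the dCMP deaminase that feeds TYMS, had log2 FC of −0.50 (FDR = 0.00130) and −0.53 (FDR = 3.82e-05). DUT, which makes dUMP from dUTP, had −0.08 (FDR = 0.762), but −0.34 (FDR = 0.00992) without n.t. replicate 1, and its sign turned positive with total counts as scaling (0.040).

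Since RRM2, TYMS and RRM1 are used in S phase, 20 replication and S-phase markers were measured beside them. Of these, 9 were lower and 3 (CDT1, GINS4 and CCNE2) higher, against 32.1% and 31.9% of all genes tested. Their median log2 FC was −0.30, against 0.01 over all genes tested. Their summed level was 6258 to 6487 CPM in n.t. and 5495 to 5556 CPM in treated libraries. PCNA, MCM4 and FEN1 were among the 8 that did not pass the test, with log2 FC of 0.12, −0.05 and −0.05. The part of cell-cycle position in the values of the 10 enzymes was not tested.

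Levels of different genes were compared per kilobase of exon, as RPKM. In n.t. cells IMPDH2 was the most abundant at 303 RPKM, followed by RRM2 at 102 RPKM without overlap of their libraries. PAICS, GART, RRM1 and CAD came next at 73.7, 72.9, 69.6 and 67.3 RPKM, with CAD libraries from 54.0 to 78.9 RPKM that spanned those of the others. The GART libraries, at 71.6 to 74.0 RPKM, all lay just above those of RRM1, at 67.4 to 71.3 RPKM. PPAT at 40.2 RPKM and TYMS at 32.4 RPKM overlapped as well, and DHODH and UMPS were lowest at 15.1 and 13.97 RPKM, again with overlapping libraries. With maltonis, IMPDH2 reached 545 RPKM, and RRM1, at 97.5 RPKM, stood above RRM2, at 92.0 RPKM, although their libraries overlapped. GART and PAICS stood at 44.2 and 43.5 RPKM and CAD at 32.4 RPKM. When all annotated exons gave the length, the order among GART, RRM1 and CAD and that of DHODH and UMPS changed in n.t. cells. RRM2 and PAICS then stood close together, at 65.91 and 65.65 RPKM. GART stood at 41.2 RPKM and DHODH at 5.295 RPKM, so these levels depend on the lengths used.

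**Figure D4:**
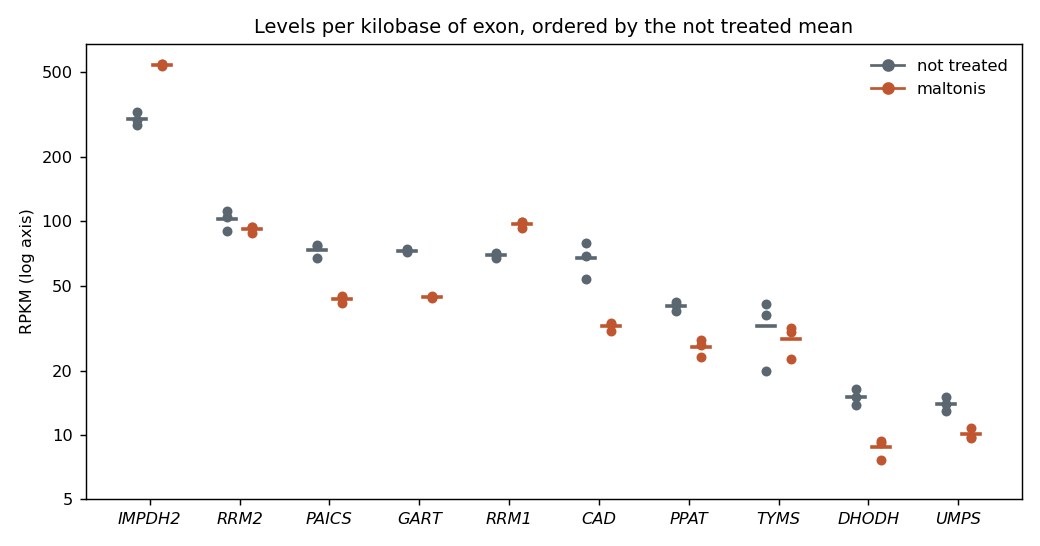
RPKM on a log axis for the 10 enzymes, ordered by the n.t. mean, with 3 dots per group and a bar at the mean. IMPDH2 is highest in both groups, and RRM1, close to PAICS, GART and CAD in n.t. cells, stands clear above them with maltonis.

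Genes around de novo synthesis were described from the same pathway lists. Over 58 genes other than the 10, 54 were tested, of which 28 were lower and 7 higher (25 and 11 with total counts as scaling), against 32.1% and 31.9% of all genes tested, with a median log2 FC of −0.34. On the transport list, 2 of 4 genes were lower and none was higher. The equilibrative nucleoside transporter SLC29A1 (ENT1) fell from 128 ± 15.0 to 31.5 ± 1.99 CPM and SLC29A2 (ENT2) from 43.6 ± 0.748 to 5.64 ± 1.13 CPM (SD, n = 3). Their log2 FC were −2.02 (FDR = 3.47e-07) and −2.97 (FDR = 1.91e-07). SLC29A3 and SLC29A4, at 2.12 to 3.34 and 0.418 to 1.44 CPM, did not pass the test.

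On the salvage list, where bases and nucleosides are reused, 6 of 12 genes were lower and 2 higher. Of all genes tested, 32.1% were lower and 31.9% higher. UCKL1, a uridine kinase relative, stood at 54.8, 52.7 and 48.6 CPM in n.t. and at 6.25, 6.59 and 6.18 CPM in treated cells, 8.18-fold lower (log2 FC −3.03, FDR = 2.77e-08). PNP, the purine nucleoside phosphorylase, had a log2 FC of −1.18 (FDR = 9.24e-07). UCK1, a uridine-cytidine kinase, rose with a log2 FC of 1.30 (FDR = 7.17e-07) and UPRT with 0.59 (FDR = 0.000517).

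On the breakdown list, 6 of 11 genes tested were lower and none was higher, against 32.1% and 31.9% of all genes tested. UPP1, the uridine phosphorylase, and AMPD3, an AMP deaminase, led with log2 FC of −1.58 (FDR = 9.43e-06) and −1.27 (FDR = 1.64e-06). On the folate and one-carbon list, which supplies carbon to purines and to TYMS, 3 of 11 were lower and 3 higher, near the 32.1% and 31.9% of all genes tested. SLC19A1, the reduced folate carrier, fell from 90.6 ± 6.40 to 17.8 ± 2.91 CPM (SD, n = 3; log2 FC −2.35, FDR = 3.95e-07) and MTHFD1L had a log2 FC of −0.68 (FDR = 0.00115). SHMT1, a serine hydroxymethyltransferase, rose with a log2 FC of 0.89 (FDR = 2.15e-06).

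**Figure D5:**
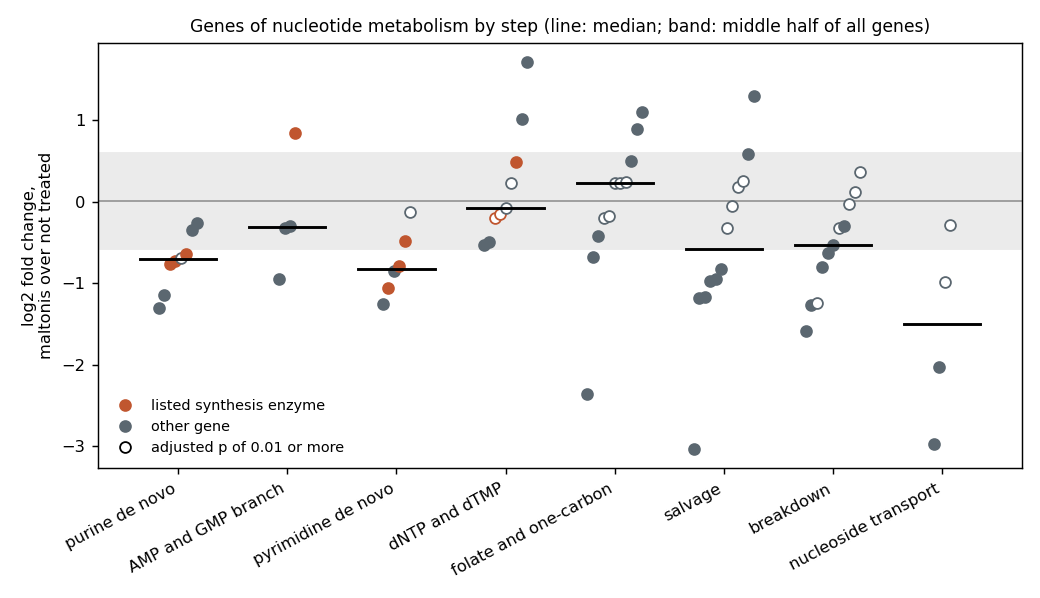
Log2 FC (y axis) of every tested gene of the 8 lists, with filled dots past an FDR of 0.01, black lines at list medians and a gray band for the range between the quartiles of all genes tested (−0.58 to 0.60). The purine and pyrimidine medians lie below the band, at −0.70 and −0.82, and the deoxynucleotide median, at −0.08, lies within it.

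Genes that overlap or adjoin the 10 on the genome were measured as well, and of 9 tested 2 were lower and 5 higher. Of all genes tested, 32.1% were lower and 31.9% higher, and a link between neighbors was not tested. QRICH1, beside IMPDH2, was higher, with a log2 FC of 0.41 (FDR = 0.000232). TXNL4B, beside DHODH, DONSON, beyond SON near GART, and C2orf48, beside RRM2, were higher too, with log2 FC of 1.081, 0.73 and 1.19, whereas the enzymes beside them were lower or not called. SRP72, beside PAICS, was lower (log2 FC −0.33, FDR = 0.00111). SON, which overlaps the start of GART on the other strand, spread from 222 to 463 CPM in n.t. libraries and did not pass the test (log2 FC −0.24, FDR = 0.448; 0.14 without n.t. replicate 3). STIM1, beside RRM1, had a log2 FC of 0.13 (FDR = 0.155).

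For the enzymes with the lowest and the highest log2 FC, the most similar profiles among all other genes tested were sought, by Euclidean distance of log2 CPM centered on the mean of the 6 libraries. CAD was nearest to JAZF1, MPRIP and BIN2, at distances of 0.133, 0.133 and 0.163. IMPDH2 was nearest to MEA1, GMPPA and ZNF274, at distances of 0.0227, 0.0624 and 0.0646. The log2 FC of these genes ranged from −1.12 to −0.99 for CAD and from 0.84 to 0.89 for IMPDH2. Such closeness follows from the choice by distance over the same 6 libraries and is no separate result.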

How the data were processed

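Stranded total RNA libraries of NB4 cells were sequenced, 3 per group. The deposited values are whole-number counts of reads per gene symbol, made by the authors without normalization; the submitters' processing notes name TopHat, Bowtie2, HTSeq and hg19, while the annotation and the strand setting are not given in the sources used here. The libraries held 18492154 to 38205483 counts, and the 6 tables held no row without a gene name. No 2 replicates matched within sampling noise (chi-square over its degrees of freedom, 4.155 to 33.07).

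Counts were analyzed in R 4.3.3 with edgeR 4.0.16 (TMM, filterByExpr, quasi-likelihood test without covariates), and p-values were adjusted after Benjamini-Hochberg over 13209 genes. Every FDR of a single gene comes from this fit unless another is named. Standard errors were derived from the same test, as the absolute log2 FC divided by the square root of its F statistic. Genes were called at an FDR under 0.01, and the study's size criterion was taken as about 2.5-fold. The test was first run on simulated counts. CPM are counts per 1000000 of the TMM-scaled library, and RPKM divide them by the merged exons of the RefSeq-linked transcripts of GENCODE 29, a choice of lengths made with earlier results known. Ratios between genes used counts plus 0.5 and a two-sided exact permutation test over libraries (scipy 1.17.1), and profiles were compared on log2(CPM + 0.5). Promoter windows are those of RefSeq on GRCh38.p14, matched by symbol.

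The 10 enzymes and the other gene lists were chosen with earlier results of these data known. Named are these 10, the other genes of de novo synthesis and of the deoxynucleotide steps, the 2 largest increases and the 2 largest decreases of each other list past the test, adjoining genes, and the 3 nearest profiles of the enzymes with the lowest and the highest log2 FC. HPRT1, SLC29A3, SLC29A4 and the single markers were named after their values were seen, and some items that this rule names are not reported here. As alternatives, libraries were scaled by total counts, the upper quartile or DESeq2 1.42.0, the likelihood ratio test of edgeR or the Wald test of DESeq2 was used, and further ones concerned the filter, replicate block, file-name code, each library left out, and replicates 2 and 3 alone.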

Additional observations from a re-analysis of the deposited data

How the results depend on the processing

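Over 15 alternatives, the 6 enzymes called lower and the 2 called higher kept both direction and call in each, and TYMS and RRM2 kept a negative log2 FC. RRM2 passed the test without n.t. replicate 1 and with replicates 2 and 3 alone (log2 FC −0.21, FDR = 0.00339), and TYMS with replicates 2 and 3 alone. Total counts as scaling moved the median log2 FC of all genes by 0.12, and with them the other pathway genes called higher numbered 11 in place of 7, the only count to change by over 1.5 times. PRPS2 and ADSS missed the threshold with total counts (−0.14 and −0.18), with the upper quartile (−0.17 and −0.21) and without n.t. or maltonis replicate 2, and ADSS also without n.t. replicate 3; C18orf56 missed it without n.t. replicate 3 or maltonis replicate 2 or 3. DUT changed sign with total counts (0.040) and the upper quartile (0.0076), and ranged from −0.34 to 0.11 with 1 library left out, above 0 without n.t. replicate 2 or 3. SON ranged from −0.45 to 0.14, above 0 without n.t. replicate 3. The causes were not tested. Depth limited ADSSL1, which was not tested. Counts were also low for SLC29A4, at 11 to 38 per library (log2 FC −0.99, FDR = 0.0204), and for C2orf48, at 22 to 77 per library.

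Same-numbered libraries deviated from their group means with correlations of 0.30, 0.09 and 0.16. Between replicates 2 and 3 of different groups they were 0.12 and 0.14, and between replicate 1 and the others −0.23 to −0.16. Replicates 2 and 3 were thus not matched by number, and the numbers were not taken as pairs. Replicate 1 of both groups deviated alike, as the file-name code divides the libraries. The main fit has no term for this. With the code as covariate, FDR = 2.57e-07 for CAD, 0.0264 for RRM2 and 0.118 for TYMS. With the replicate block, the log2 FC were −1.04 for CAD, −0.79 for DHODH, 0.85 for IMPDH2, 0.49 for RRM1, −0.15 for RRM2 and −0.17 for TYMS, and 6 enzymes were lower and 2 higher. The block called ATIC (−0.57, FDR = 0.00648) and HPRT1 (−0.31, FDR = 0.00298) lower.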

Other observations

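Genes of the pathway lists with a mean over 10 CPM were searched for low values in replicate 1. The search was not planned, and replicate 1 of ATIC and TYMS is already described above as lowest in both groups. The shares found are thus no separate result for those genes. The cutoff was under 0.75 of the mean of replicates 2 and 3 in both groups. It was met by 3 of 57 such genes (5.26%), against 127 of 9098 genes tested above 10 CPM (1.40%). These were ATIC, TYMS and HPRT1, the salvage enzyme for hypoxanthine and guanine. Relative to the mean of replicates 2 and 3, replicate 1 stood at 0.269, 0.513 and 0.551 in n.t. and at 0.463, 0.730 and 0.628 in maltonis-treated cells for these genes in that order. Other genes missed the cutoff although replicate 1 was lowest in both groups. DUT, for instance, stood at 84.4, 175 and 156 CPM in n.t. and at 114, 141 and 139 CPM in treated cells.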
